A study of Homo sapiens with 6 samples.

Results

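Urokinase and 8 other genes of pericellular proteolysis and of the invasive cell surface were followed in PANC-1 cells with and without raffinose. PANC-1 is a long-used line grown from a human pancreatic ductal carcinoma. The 9 genes, out of 60612 in the deposited table, were PLAU, PLAUR, PLAT, SERPINE2, ANPEP, CDCP1, TGM2, ST14 and DPP4. They were chosen by name, in knowledge of their log2 fold changes between the 2 groups in these same libraries, so those differences, and whether the fit over all genes called them, are given as a description and support nothing. Of the 9 genes, 7 had enough counts to enter the fit over 18863 genes.

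The treated group was 3 libraries of cells given 50 µM D(+)-raffinose pentahydrate, a plant trisaccharide, for 24 hours, and the other group was 3 libraries of PANC-1 cells without it. All cells grew in the same medium with fetal bovine serum, and the sample names of the untreated group state no vehicle. RNA was sequenced as poly(A)-derived paired reads, with 59723420 to 66063664 counts per library. The labels do not say whether replicates were grown separately, so p-values reflect only library-to-library spread, possibly of technical origin. In bulk RNA, fewer cells of a kind and less RNA per cell cannot be told apart.

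Urokinase, the product of PLAU, is a secreted serine protease that binds its receptor PLAUR at the cell surface and cuts plasminogen to plasmin, which degrades fibrin and matrix. The serpin SERPINE2 can inhibit it, and PLAT encodes the other plasminogen activator. ANPEP and DPP4 are membrane-bound exopeptidases, ST14 (matriptase) is a transmembrane serine protease, CDCP1 is a transmembrane protein phosphorylated by Src family kinases, and TGM2 cross-links proteins and binds fibronectin. In the table's own annotation, 7 of the 9 genes carry the GO term plasma membrane, against 15.5% of tested genes, and 5 carry proteolysis, against 2.15%. Both counts include ST14 and DPP4, which did not enter the fit. As the genes were chosen by name for such roles, nothing is read from these shares. PLAU, PLAUR and PLAT share the term fibrinolysis.

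The start regions of PLAU, ANPEP, CDCP1 and PLAUR are shown so that their sequence can be read beside the values, and none of the 5 motifs searched was found in all 4 genes. Each run covers 250 bases before and 50 after a RefSeq start on GRCh38.p14, written 5′ to 3′ on the gene's strand. Capitals mark matches to TGANTCA (AP-1), CGGAAG (ETS), GCGNGGGCG (EGR1) and GGGCGG (SP1) on either strand, and to TATAA on the gene's strand. Of the 2 PLAU windows, the one with a match is shown.
PLAU, chr10:73910882-73911181, plus strand: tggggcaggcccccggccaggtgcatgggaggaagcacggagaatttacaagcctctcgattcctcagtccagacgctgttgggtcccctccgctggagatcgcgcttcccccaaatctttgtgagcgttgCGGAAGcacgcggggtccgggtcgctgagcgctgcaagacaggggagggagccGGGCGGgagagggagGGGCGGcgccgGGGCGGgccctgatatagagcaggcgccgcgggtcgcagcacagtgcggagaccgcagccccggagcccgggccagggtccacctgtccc
ANPEP upstream start, chr15:89814803-89815102, minus strand: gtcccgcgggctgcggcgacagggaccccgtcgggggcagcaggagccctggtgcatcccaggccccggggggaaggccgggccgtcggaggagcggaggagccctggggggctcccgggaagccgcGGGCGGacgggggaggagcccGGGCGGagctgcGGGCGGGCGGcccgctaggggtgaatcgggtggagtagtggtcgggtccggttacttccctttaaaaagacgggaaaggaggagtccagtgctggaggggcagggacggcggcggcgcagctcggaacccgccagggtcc
ANPEP downstream start, chr15:89806579-89806878, minus strand: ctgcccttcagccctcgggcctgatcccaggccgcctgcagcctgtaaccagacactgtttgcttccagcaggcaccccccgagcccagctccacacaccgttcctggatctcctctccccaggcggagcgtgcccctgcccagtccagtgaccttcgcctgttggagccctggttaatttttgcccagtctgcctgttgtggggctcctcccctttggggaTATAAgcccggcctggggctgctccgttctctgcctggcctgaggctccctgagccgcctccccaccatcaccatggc
CDCP1, chr3:45146329-45146628, minus strand: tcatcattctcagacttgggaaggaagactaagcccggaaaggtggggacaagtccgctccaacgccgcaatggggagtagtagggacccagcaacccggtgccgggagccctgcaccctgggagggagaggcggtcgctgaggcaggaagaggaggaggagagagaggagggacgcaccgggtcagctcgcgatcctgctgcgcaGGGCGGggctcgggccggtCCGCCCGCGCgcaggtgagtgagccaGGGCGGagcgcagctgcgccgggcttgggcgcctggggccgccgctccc
PLAUR, chr19:43670120-43670419, minus strand: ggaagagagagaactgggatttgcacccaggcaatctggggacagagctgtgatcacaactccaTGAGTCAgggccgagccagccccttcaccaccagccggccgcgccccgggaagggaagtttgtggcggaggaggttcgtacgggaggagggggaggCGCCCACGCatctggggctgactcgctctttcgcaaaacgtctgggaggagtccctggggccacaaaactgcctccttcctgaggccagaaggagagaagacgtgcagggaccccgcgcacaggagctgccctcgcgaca

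GGGCGG stands 3 times in the PLAU window, 4 times in the upstream ANPEP window and 3 times in the CDCP1 window and is not found in the PLAUR window. It also stands in both SERPINE2 windows, 1 and 2 times, and 2 times in the DPP4 window, and 45.0% of 35116 RefSeq windows of this length hold at least 1 match. The share of G and C was 70.0% in the PLAU window shown and 48.7% in the other, which holds no match to any of the motifs. It was 75.0% and 65.3% for ANPEP, 70.3% for CDCP1 and 64.0% for PLAUR. The ETS letters occur in the PLAU window, 119 bases before the start, and in 1 of the 2 SERPINE2 windows, 71 bases before the start, and in none of the other 4 shown, against 19.5% of all windows. The EGR1 letters occur in CDCP1, 24 bases before the start and overlapping a GGGCGG match, and in PLAUR, 90 bases before it (9.43% of all windows). The AP-1 letters occur in PLAUR, 186 bases before the start (7.71% of all windows). TATAA occurs in the downstream ANPEP window, 28 bases before the start (14.8% of all windows). These are matches of letters, and gene-level values do not tell which start was used. No sequence outside these windows was searched, so a missing match says nothing of enhancers farther away, that of urokinase included.

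The 9 genes covered a wide range of expression. Levels of different genes are compared as FPKM, which are scaled to transcript length and library size. In untreated cells the mean FPKM was 252 ± 2.73 for ANPEP, 67.8 ± 1.0 for PLAU, 55.7 ± 1.64 for TGM2 and 36.4 ± 1.59 for CDCP1 (SD, n = 3). ANPEP stood at 3.72 times the level of PLAU and ranked 108 among all tested genes, and CDCP1, the lowest of these 4, was above 94.5% of them. CDCP1 was in turn at 8.07 times the level of PLAUR, the next member. PLAUR followed at 4.51 ± 0.208, SERPINE2 at 1.03 ± 0.127 and PLAT at 0.265 ± 0.0567 FPKM. Within each group, no library of any of these 7 genes overlapped with one of its neighbour in this order.

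Matriptase and DPP4 were at or near 0. ST14 (ENSG00000149418, chromosome 11, 130159782 to 130210362, plus strand) had counts of 0, 4 and 8 in untreated replicates 1, 2 and 3 and of 16, 0 and 4 in the raffinose replicates. As 1 read pair appears to add 4 to a count in this table, these are 0 to 4 fragments, and no difference was detectable at this depth. DPP4 (ENSG00000197635, chromosome 2, 161992245 to 162074215, minus strand) had a count of 0 in all 6 libraries. A floor of 3 fragments, or 12 counts, corresponds to 0.186 to 0.203 CPM per library (CPM are counts scaled to library size after TMM normalization) and covers counting error only. SPINT1, the usual inhibitor of matriptase, had counts of 0 to 20, whereas the related inhibitor SPINT2 averaged 729 ± 47.3 CPM in untreated cells.

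**Figure D1:**
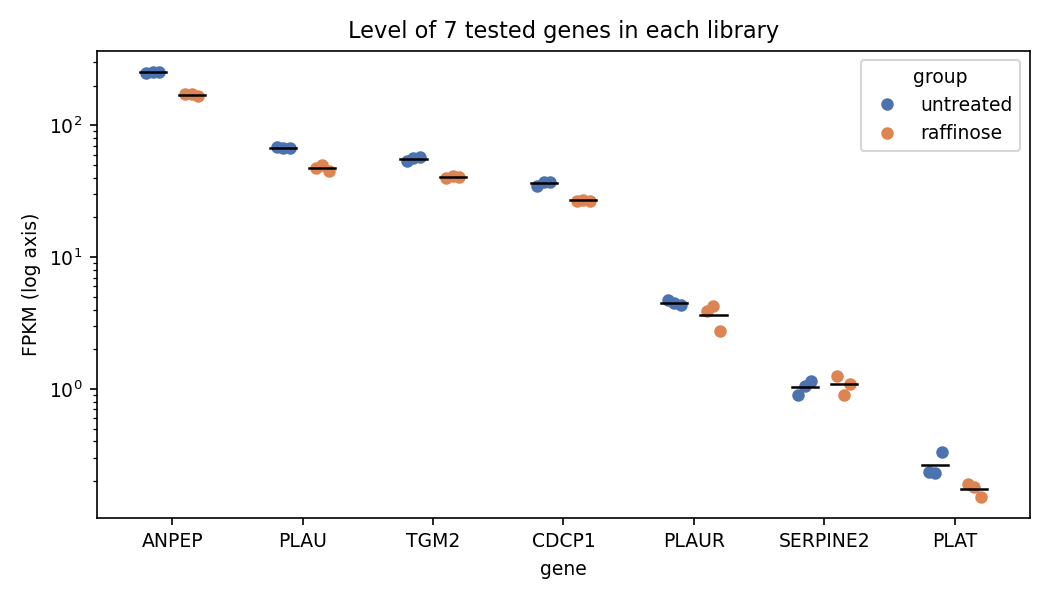
FPKM on a log axis for the members with enough counts, each point 1 library and each line the mean of 3. ANPEP, PLAU, TGM2 and CDCP1 have separate raffinose and untreated points, while those of SERPINE2 overlap.

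Urokinase mRNA was lower in each raffinose library than in any untreated one. PLAU (ENSG00000122861, chromosome 10, 73909177 to 73917494, plus strand) was at 68.9, 67.5 and 67.0 FPKM in untreated replicates 1, 2 and 3 and at 47.4, 49.6 and 44.9 FPKM in the raffinose replicates. The raffinose mean was 30.2% below the untreated mean. The log2 fold change on the count scale was -0.56 (SE 0.07), and it did not pass an adjusted p of 0.05 in the edgeR fit over all genes. C10orf55 lies over PLAU on the opposite strand with counts of 41 to 166, against 9941 to 16198 for PLAU, and whether counting used strand is not stated in the sources used here.

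The receptor was expressed far below its ligand. PLAUR (ENSG00000011422, chromosome 19, 43646095 to 43670169, minus strand) was at 4.73, 4.47 and 4.32 FPKM in untreated replicates 1, 2 and 3 and at 3.88, 4.23 and 2.77 FPKM in the raffinose replicates. The groups did not overlap, but the highest raffinose library lay only 0.612 CPM below the lowest untreated one. The log2 fold change of -0.35 (SE 0.17) did not pass, and it was -0.18 without raffinose replicate 3. The ratio of PLAU to PLAUR FPKM within a library was 14.6 to 15.5 without and 11.7 to 16.2 with raffinose, so the groups overlapped in this ratio.

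The second activator gene, PLAT (ENSG00000104368, chromosome 8, 42174718 to 42207565, minus strand), encodes tissue plasminogen activator and was at 0.235, 0.231 and 0.331 FPKM in untreated and 0.192, 0.181 and 0.152 FPKM in raffinose replicates 1, 2 and 3. The groups did not overlap, on counts of only 81 to 169. The log2 fold change of -0.63 (SE 0.22) did not pass.

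The inhibitor SERPINE2, or protease nexin-1 (ENSG00000135919, chromosome 2, 223975045 to 224039290, minus strand), had overlapping groups. It was at 0.896, 1.06 and 1.15 FPKM in untreated and 1.26, 0.891 and 1.10 FPKM in raffinose replicates 1, 2 and 3, and its log2 fold change of 0.03 (SE 0.15) was smaller than its error. The PLAU to SERPINE2 ratio was 58.4 to 76.9 without and 37.7 to 55.6 with raffinose, with no overlap. As PLAU was chosen for its difference, these ratios are given with no test.

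The members called lower were ANPEP, TGM2 and CDCP1, 3 of the 7 tested, and 0 members were called higher. Over all 18863 genes edgeR called 0.0848% lower (16 genes) and 0.0371% higher (7 genes). Groups did not overlap in CPM for 6 of the 7, each lower with raffinose, where 10.9% of all tested genes were lower and 10.6% higher without overlap (21.5% in all). As the members were chosen with this comparison known, nothing is read from these shares.

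ANPEP, the zinc-dependent aminopeptidase N or CD13 (ENSG00000166825, chromosome 15, 89784895 to 89815401, minus strand), had the highest level of the 9 genes. It was at 249, 254 and 253 FPKM in untreated replicates 1, 2 and 3 and at 172, 173 and 167 FPKM in the raffinose replicates. The untreated libraries lay close together, with a coefficient of variation of 0.750% in CPM, and every raffinose library was far below them. The mean FPKM was 32.4% lower, and the log2 fold change on the count scale was -0.60 (SE 0.04). The call was lost without raffinose replicate 1, raffinose replicate 2 or untreated replicate 3, where the value was -0.61, -0.62 and -0.60.

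TGM2, tissue transglutaminase (ENSG00000198959, chromosome 20, 38127385 to 38166578, minus strand), was at 53.9, 56.1 and 57.1 FPKM in untreated and 39.8, 41.3 and 40.6 FPKM in raffinose replicates 1, 2 and 3, with no overlap. The mean FPKM was 27.2% lower, and the log2 fold change on the count scale was -0.49 (SE 0.05). The gene overlaps RPRD1B on the opposite strand by 396 bases. RPRD1B had counts of 3081 to 3510, and TGM2 had 24017 to 34452.

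CDCP1 (ENSG00000163814, chromosome 3, 45082277 to 45146422, minus strand) was at 34.5, 37.5 and 37.1 FPKM in untreated and 26.8, 27.1 and 26.9 FPKM in raffinose replicates 1, 2 and 3, and every raffinose library was below every untreated one. The mean FPKM was 26.0% lower, and the log2 fold change on the count scale was -0.47 (SE 0.05). Leaving out any 1 of the 6 libraries ended the TGM2 and CDCP1 calls, with values of -0.52 to -0.48 for TGM2 and -0.49 to -0.46 for CDCP1.

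**Figure D2:**
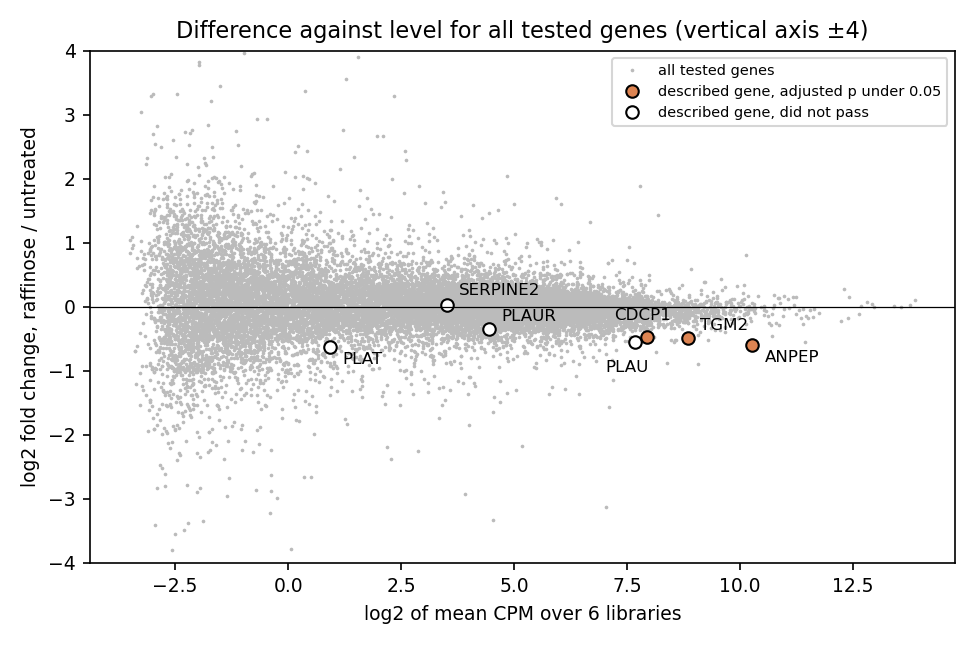
Log2 fold change of raffinose over untreated against log2 mean CPM for tested genes (grey) and the 7 tested members (circles, filled where called). The vertical axis stops at 4 in each direction and leaves out 18 genes; ANPEP, TGM2, CDCP1 and PLAU lie between -0.60 and -0.47, and SERPINE2 lies at 0.03.

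The size of the difference in these 4 abundant genes hardly moved with the way of fitting, while the calls did. PLAU was called in 6 of 15 alternatives, ANPEP in 11, TGM2 in 8 and CDCP1 in 6. DESeq2 called 4 members, where it called 2.99% of all genes with an adjusted p (1.87% lower and 1.12% higher). Members called and the share of all genes called were 2 and 0.0594% with no filter, 4 and 0.358% with a filter at a mean of 1 FPKM, and 4 and 0.23% with counts divided by 4. They were 4 and 0.164% by limma on log2(FPKM + 1), 3 and 0.154% by limma with a pseudocount of 0.1, 4 and 0.159% with robust dispersion, 3 and 0.122% with DESeq2 size factors, and 0 and 0% with the block. Without raffinose replicate 1, 2 or 3 the members called were 0, 0 and 1, against 0.092%, 0.0561% and 0.0922% of all genes. Without untreated replicate 1, 2 or 3 they were 1, 1 and 0, against 0.117%, 0.102% and 0.0203%.

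**Figure D3:**
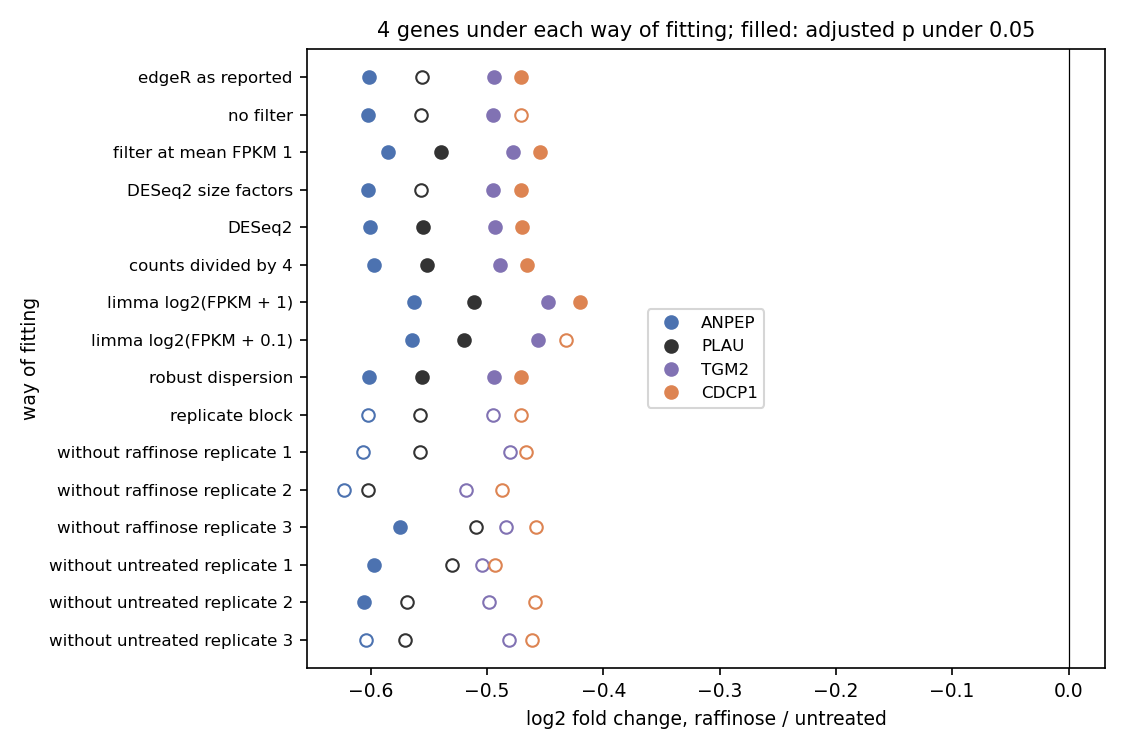
Log2 fold change of raffinose over untreated for ANPEP, PLAU, TGM2 and CDCP1 under each way of fitting, filled where the adjusted p was under 0.05. All 4 genes stay below 0 in all 16 fits, while filled points become few where a library is left out.

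Similar profiles were sought among the 3759 other genes with a mean of at least 10 FPKM, by the root mean square distance between log2 CPM profiles over the 6 libraries, each centred on its mean. The nearest to PLAU were PLIN2, a lipid droplet protein (0.022), ANPEP (0.040), AGR2, a secretory-pathway disulfide isomerase (0.040), MISP (0.043) and the annexin gene ANXA3 (0.045). For ANPEP they were the transcription factor gene ETS2 (0.040), PLAU (0.040), PLIN2 (0.048), the sphingosine-1-phosphate transporter gene SPNS2 (0.049) and TGM2 (0.060). PLAUR, PLAT and SERPINE2, each below 10 FPKM, lay farther from PLAU, at 0.175, 0.197 and 0.355. All profiles share the same 6 libraries in 2 groups, so the distance depends on the difference between the groups. As PLAU, ANPEP and TGM2 were chosen with that difference known, their closeness to each other supports nothing.

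Markers of other cell types were looked at beside ANPEP and PLAUR, which myeloid cells and fibroblasts can also express. Of 8 leukocyte markers, 2 were at 0, CD3E among them, and PTPRC, CD14, LYZ, ITGAM and CSF1R reached at most 0.365 FPKM. The summed level of that list was 12.5 to 16.1 FPKM without and 7.10 to 9.58 FPKM with raffinose, nearly all of it CD68, a lysosomal glycoprotein (log2 fold change -0.81, edgeR adjusted p = 0.146). The 10 fibroblast markers summed to 48.1 to 52.3 FPKM without and 44.8 to 47.5 FPKM with raffinose. Most came from COL3A1 (log2 fold change -0.22) and COL1A1 (0.24). LUM, POSTN and COL1A2 reached 0.360, 0.267 and 0.185 FPKM, and PDGFRB and THY1 0.0709 and 0.0308 FPKM. DCN, PDGFRA and FAP reached at most 0.0110 FPKM. The 6 endothelial markers summed to at most 0.117 FPKM, with EMCN at 0. All 6 acinar markers were at 0, and of 6 endocrine markers INS, GCG and SST were at 0, with a sum of 2.79 to 3.10 FPKM without and 2.60 to 2.71 FPKM with raffinose and values of 0.27 for CHGB and -0.55 for SCG2. Of the 6 carcinoma cell markers KRT8, KRT18, VIM and CDH1 were present, KRT19 and EPCAM reached at most 0.290 FPKM, and the sum was 1676 to 1849 FPKM without and 1373 to 1427 FPKM with raffinose. The keratin genes KRT8 and KRT18 had log2 fold changes of -0.55 and -0.46, similar in size to those of CDCP1, TGM2 and PLAU, with edgeR adjusted p of 0.164 and 0.119, and VIM and CDH1 had -0.22 and -0.15. The part of these differences in the results was not tested.

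In the wider plasminogen activation system 0 of 17 tested genes out of 22 were called by edgeR, where 0.122% of all genes were. At an unadjusted p under 0.05 there were 4, against 13.3% of all genes. Among the 4 were the serpin gene SERPINI1 and the members PLAU and PLAT, which were chosen with this comparison known. DESeq2 called 1 gene lower, PLAU, and 2 higher, SERPINI1 among them, against 1.87% and 1.12% of all genes. The neuronal serpin gene SERPINI1 averaged 2.85 ± 0.289 CPM in untreated and 6.20 ± 0.706 CPM in raffinose libraries, a log2 fold change of 1.12 (SE 0.15, edgeR adjusted p = 0.0861). SERPINF2, the plasmin inhibitor gene, averaged 0.729 ± 0.00268 and 0.380 ± 0.171 CPM, at -0.94 (SE 0.41), and did not pass. Its counts were only 43 to 47 without and 13 to 35 with raffinose. In raffinose replicate 2 it was at 0.205 CPM, near the floor of 0.190 CPM in that library. The list's median log2 fold change was -0.03, against 0.01 over all tested genes. Without the members it was 0.02, over 13 tested genes.

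The receptors that clear or hold protease complexes did not pass. LRP1, which internalizes protease and inhibitor complexes, averaged 60.3 ± 10.5 and 74.8 ± 6.15 CPM in untreated and raffinose libraries, at 0.31 (SE 0.14), and the collagen receptor gene MRC2 averaged 69.1 ± 2.11 and 75.7 ± 3.58 CPM, at 0.13 (SE 0.06). Among 14 tested partners of the urokinase receptor out of 17, 0 were called by edgeR and 0 by DESeq2, and 7 had positive values. The median was 0.01. The 1 gene at an unadjusted p under 0.05 was the integrin subunit gene ITGB1, at 824, 1141 and 920.2 CPM in untreated and 1208, 1287 and 1143 CPM in raffinose replicates 1, 2 and 3, at 0.33 (SE 0.12). Of the other tested integrin subunit genes in the list, ITGA5, ITGAV and ITGB2 had 0.08 (SE 0.05), 0.22 (SE 0.14) and 0.26 (SE 0.22). ITGA3, ITGB3, ITGB5 and ITGAM had -0.09 (SE 0.06), -0.002 (SE 0.10), -0.005 (SE 0.06) and -0.53 (SE 0.45).

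Most membrane serine proteases and their inhibitors were too low to test, as ST14 was. Of 20, 4 entered the fit and 0 were called by edgeR. All 4 had an unadjusted p under 0.05, as did 13.3% of all genes, with 1 positive and 3 negative. The log2 fold change was -0.33 (SE 0.13) for SPINT2, while the proprotein convertase gene FURIN had 0.26 (SE 0.06) and the protease-activated receptor gene F2RL1 -0.18 (SE 0.05), with edgeR adjusted p from 0.179 to 0.373. The serine protease gene PRSS22 averaged 1.38 ± 0.132 and 0.455 ± 0.224 CPM, on counts of only 19 to 98. It was called lower by DESeq2 but not by edgeR (adjusted p = 0.189).

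Of the other surface peptidases, LVRN was called by DESeq2 and none by edgeR, where these tools called 2.99% and 0.122% of all genes. Of the 11 tested besides ANPEP, 4 had an unadjusted p under 0.05, against 13.3% of all genes. Among the 11, 8 had positive values, and the median was 0.31. Of all 18863 tested genes 9625 were positive, and whether these peptidases differ from ANPEP in direction was not tested. LVRN, another aminopeptidase gene, averaged 2.14 ± 0.295 and 4.75 ± 0.730 CPM in untreated and raffinose libraries (log2 fold change 1.15, SE 0.19, edgeR adjusted p = 0.115), and DESeq2 called it higher. The genes of carboxypeptidase D (CPD) and carboxypeptidase M had 0.31 (SE 0.10) and 0.35 (SE 0.12), and NAALAD2 had 0.85 (SE 0.32).

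The genes listed with CDCP1 and with TGM2 were not called. Besides CDCP1, 0 of 13 tested Src family and adhesion signalling genes passed by edgeR or DESeq2. Where 13.3% of all genes had an unadjusted p under 0.05, 2 of the 13 did. These were ITGB1 and the paxillin gene PXN, which averaged 503 ± 3.91 and 463 ± 6.09 CPM, at -0.12 (SE 0.04). The kinase genes LYN and CSK had -0.08 (SE 0.06) and -0.13 (SE 0.07). Besides TGM2, 0 of 10 tested genes of the transglutaminase family and of TGM2 partners passed by edgeR or DESeq2. Against 13.3% of all genes, 4 of the 10 had an unadjusted p under 0.05. Apart from ITGB1 these were SDC4, a fibronectin-binding proteoglycan gene, at -0.26 (SE 0.06), the receptor gene ADGRG1 at -0.45 (SE 0.12) and the coagulation transglutaminase gene F13A1 at -0.84 (SE 0.21).

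Of the matrix metalloproteases, ADAM proteases and their inhibitors, 0 of 19 tested were called by edgeR and 0 by DESeq2. At an unadjusted p under 0.05 there were 2, against 13.3% of all genes. TIMP1, a metalloprotease inhibitor gene, averaged 254 ± 16.3 and 209 ± 15.1 CPM, at -0.28 (SE 0.08), and the membrane-anchored inhibitor gene RECK 13.3 ± 0.908 and 16.6 ± 0.301 CPM, at 0.32 (SE 0.09). ADAM10 had 0.26 (SE 0.13) and MMP24 -0.37 (SE 0.15).

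Of the AP-1 and ETS families, known to act on the urokinase enhancer, and the zinc finger gene EGR1 listed with them, 16 were tested. Of these, 2 were called, against 0.122% of all genes, and 7 had an unadjusted p under 0.05, against 13.3%. The list was drawn up with earlier results of these data known, so nothing is read from these shares. ETS2 fell from 106 ± 5.31 to 69.0 ± 2.25 CPM, a log2 fold change of -0.62 (SE 0.06, edgeR adjusted p = 0.0359). EGR1 rose from 5.42 ± 0.204 to 16.8 ± 0.214 CPM, a log2 fold change of 1.63 (SE 0.09, edgeR adjusted p = 0.00537). The ETS2 call was lost in each of the 6 fits without a library (edgeR adjusted p from 0.0817 to 0.157) and the EGR1 call without untreated replicate 3 (edgeR adjusted p = 0.0594). FOSL1 averaged 197 ± 30.9 and 151 ± 5.39 CPM, FOSL2 51.3 ± 1.21 and 41.1 ± 1.53 CPM, and FOS 1.43 ± 0.199 and 2.53 ± 0.367 CPM in untreated and raffinose libraries, none of them called by edgeR, while DESeq2 called FOSL2 lower. JUN had 0.18 (SE 0.06).

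**Figure D4:**
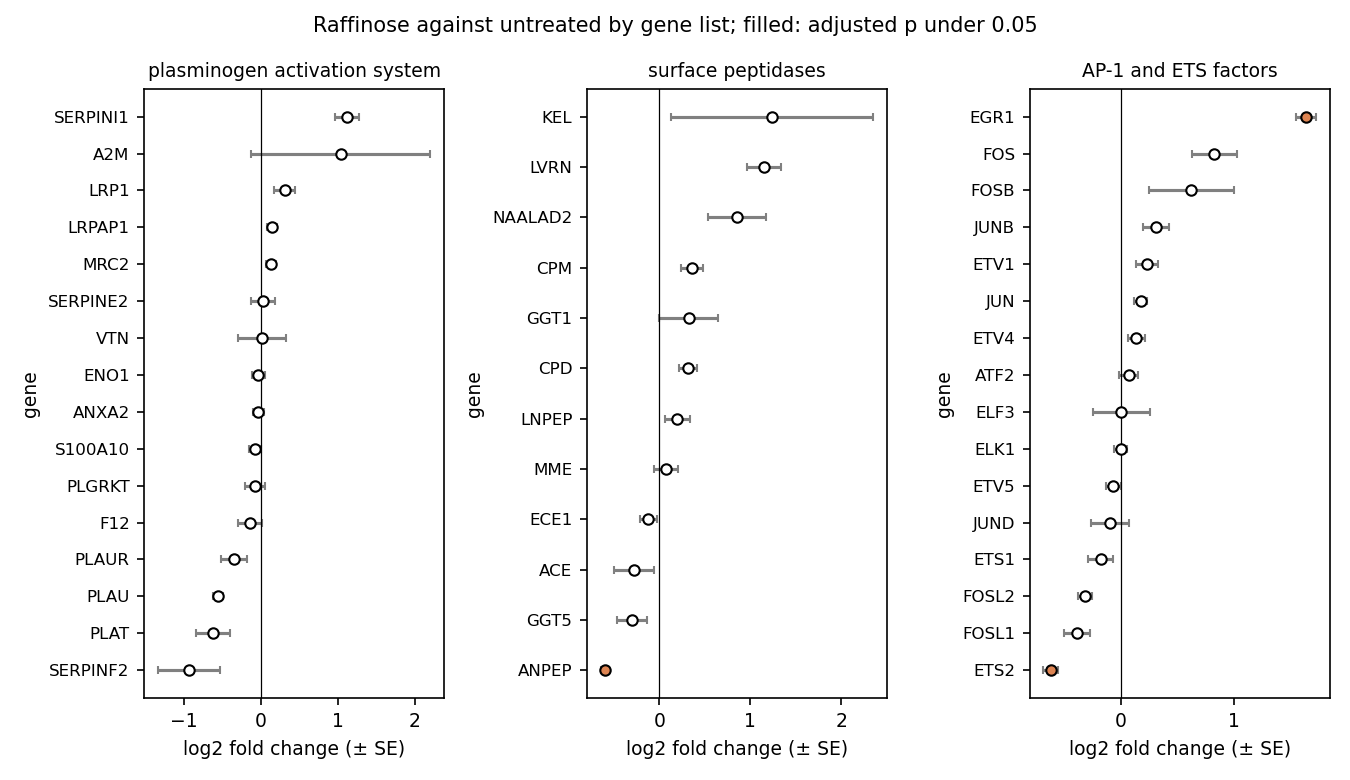
Log2 fold change of raffinose over untreated with its standard error for tested genes of 3 lists, 1 gene of the first list left out. Filled points passed by edgeR at an adjusted p of 0.05, namely ANPEP among surface peptidases, ETS2 and EGR1 among AP-1 and ETS factors, and 0 genes in the plasminogen activation system.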

How the data were processed

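Per the labels' protocols, dUTP-marked libraries of poly(A) RNA were sequenced as paired 150-base reads. Tools listed in the submitters' processing notes are HISAT2 2.0.4, StringTie 1.3.4d and cutadapt 1.9, beside DESeq2 and edgeR. The deposited table gives, per the file headers, FPKM and estimated counts for each gene and library. The estimated counts were deposited by the authors as whole numbers and used as they are. Read from the values, 1 read pair appears to add 4 to them, so a minimum count of 10 is less than 3 fragments. With counts divided by 4, 15212 genes were tested, against 18863. Not given in the sources used here were the build, the annotation and the strand setting.

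Counts were fitted with edgeR 4.0.16 (TMM, filterByExpr at a minimum count of 10, quasi-likelihood test, Benjamini-Hochberg over 18863 genes, threshold 0.05), with no covariate. FPKM were averaged per group. Alternatives used DESeq2 1.42.0, limma 3.58.1 on log2(FPKM + 1) or log2(FPKM + 0.1), other filters and scalings, a replicate block, and each library left out. Scripts were tested on simulated counts with 200 of 18863 genes changed. Of genes changed 1.5-fold, edgeR recovered 2%, limma 8% and DESeq2 28%, with 9, 10 and 83 false calls over all genes. At 2-fold they recovered 54%, 56% and 78%. A gene that did not pass is therefore not shown to be unchanged.

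The members and lists were chosen with earlier results of these data known. Nothing is therefore read from the shares of list genes called or at an unadjusted p under 0.05. Named genes were the members, called list genes, up to 4 further genes per list by smallest p, SPINT1, SPINT2, LRP1 and MRC2. The 5 nearest profiles of PLAU and ANPEP and the tested integrin subunit genes among the receptor partners were named too. RefSeq windows were matched by symbol for 6 of the 9 members. Single values of 2 listed genes are not reported here.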

Additional observations from a re-analysis of the deposited data

How the results depend on the processing

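All 15 alternatives kept the direction of PLAU, PLAUR, ANPEP, CDCP1 and TGM2, and so did the 14 that gave PLAT a value, as it did not pass the filter at a mean of 1 FPKM. SERPINE2, whose groups overlap, turned to -0.093 without raffinose replicate 1 and to -0.052 without untreated replicate 1, and reached 0.14 without raffinose replicate 2. The log2 difference between the groups was -0.565 in FPKM and -0.602 in CPM for ANPEP, and -0.457 and -0.494 for TGM2. It was -0.520 and -0.557 for PLAU, -0.433 and -0.471 for CDCP1, and -0.336 and -0.372 for PLAUR. For PLAT it was -0.587 and -0.620 and for SERPINE2 0.058 and 0.022, so the CPM value was lower for each tested member. The cause of these and the following changes was not tested. Against 7 genes higher and 16 lower in the reported edgeR fit, a filter at a mean of 1 FPKM gave 15 and 27 and DESeq2 162 and 269. Genes higher were 11 both with counts divided by 4 and by limma on log2(FPKM + 0.1). Leaving out 1 library gave 0 to 15 higher, 4 to 13 lower and 0 to 1 members, against 3 members. Without untreated replicate 3 edgeR called 0 genes higher, with 1969 genes of either direction at an unadjusted p under 0.05. In the plasminogen list, against 0 called, there were 2 with the filter at 1 FPKM, 3 by DESeq2, 2 with counts divided by 4, 2 by limma with either pseudocount and 1 with robust dispersion. DESeq2 called 1 gene of the membrane serine protease list and 2 surface peptidase genes, against 0 and 1. The CDCP1 list fell from 1 call to 0 with no filter and by limma on log2(FPKM + 0.1), and the AP-1 and ETS list from 2 to 1 with no filter. Without 1 library the calls were 0 to 1 for surface peptidases, 0 for the CDCP1 list, 0 for the transglutaminase list and 0 to 1 for AP-1 and ETS factors. The log2 difference in the PLAU to SERPINE2 ratio was -0.75 to -0.46 without 1 library, an alternative chosen after seeing the data.

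Replicate numbers are shared between the groups, but the labels tie them to no culture or day. Deviations of same-numbered libraries correlated at -0.01, -0.08 and 0.03 over 14149 genes, and 0 of 6 libraries correlated best with its own number. With the replicate block edgeR called 0 genes higher, 0 lower, 0 members and 0 genes in the surface peptidase, CDCP1, transglutaminase and AP-1 and ETS lists, with 1932 genes at an unadjusted p under 0.05.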
